A study of Mus musculus with 9 samples.

Results

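The regulatory B subunits of protein phosphatase 2A (PP2A) were examined in the mouse uterus with and without *Wnk1*. The 10 genes comprised 4 of the B55 family (*Ppp2r2a*, *Ppp2r2b*, *Ppp2r2c* and *Ppp2r2d*), 5 of the B56 family (*Ppp2r5a*, *Ppp2r5b*, *Ppp2r5c*, *Ppp2r5d* and *Ppp2r5e*) and *Ppp2r3a* of the B'' family. They are 10 of the 31274 entries of the expression table. The genes were taken by symbol, in a selection made with the difference between genotypes in these same values in view. That difference is therefore given as a description: no p is given for these genes, and how many of them pass the thresholds used for all genes is counted only beside the share of all genes that do. All 10 passed the filter on low values, a mean above 1 FPKM (fragments scaled to transcript length and to the mapped total of the library) in at least 1 genotype, as did 14728 entries in all.

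Whole uterus was taken on pseudopregnancy day 4.5, in the receptive phase, from C57BL/6 females mated with vasectomized males, so that no embryos were present. RNA-seq libraries came from 4 Wnk1f/f mice, the controls, which carry floxed *Wnk1* alleles and no Cre, and from 5 Wnk1d/d mice. In Wnk1d/d, Cre expressed from the *Pgr* promoter removed exon 2 of the floxed alleles in cells that express the progesterone receptor. Each library was made from its own mouse. Immune and endothelial cells do not express that receptor and so keep *Wnk1* in both genotypes. The study's methods give virgin females of 6 to 10 weeks.

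PP2A is a serine and threonine phosphatase built from a scaffold subunit A, a catalytic subunit C and a regulatory subunit B. The B subunit decides which substrates the enzyme acts on and where in the cell it does so, and B subunits of the B55, B56, B'' and striatin families compete for the same A and C core. AKT, a kinase of growth and survival that takes part in the uterine response to ovarian hormones, is a known substrate of PP2A that carries a B55 subunit.

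A pair of libraries stood apart from the rest. In Wnk1d/d replicate 4 a single entry had 1445340 FPKM, 70.3% of the summed FPKM of that library, and 0 FPKM in the other 8. Its sum was 2056715 FPKM, against 570601 to 721540 in the other libraries, while the median log2(FPKM + 1) of the tested genes lay between 3.79 and 3.82 in all 9. In Wnk1f/f replicate 4, the 10 liver marker genes summed to 194 FPKM, against 10.3 to 13 in the other Wnk1f/f libraries and 12.5 to 41.9 in Wnk1d/d. FPKM carry no read counts, so the depth of each library is unknown. The differences of the B subunit genes without overlap, and the calls of the gene lists that changed without these 2 libraries, are also given without them.

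*Wnk1*, the targeted kinase gene, had 44.9, 43.4, 47.3 and 45.5 FPKM in Wnk1f/f and 33.9, 29.9, 31.0, 30.2 and 31.3 FPKM in Wnk1d/d. The gene was lower in 5 of 5 Wnk1d/d libraries, with means of 45.3 ± 1.62 (SD, n = 4) and 31.2 ± 1.62 (SD, n = 5) and a limma adjusted p of 0.0017 (log2 difference -0.52, SE 0.06). The adjusted p was 0.014 without both replicate 4 libraries, within a range of 0.0015 to 0.052 over the alternatives, the highest being that with the replicate number as a block. These values count all exons, also those outside the deletion. The 8 uterus markers were all detected above the filter, and the receptor gene *Pgr* had a mean of 16.6 FPKM in Wnk1f/f and 17.8 FPKM in Wnk1d/d. Of these 8, 4 had estimates above 0 and 4 below. *Esr1*, *Foxa2* and *Wnt7a* had ratios of means of 1.22, 1.16 and 1.12, and *Emx2* had 0.944. *Hoxa10*, *Hoxa11* and *Hand2*, transcription factor genes of the uterine stroma, were lower in Wnk1d/d, each in 5 of 5 libraries. Their limma adjusted p were 0.0062, 0.0065 and 0.029, with ratios of means of 0.684, 0.667 and 0.677. Over the alternatives their highest adjusted p were 0.077, 0.058 and 0.12. Their ratios were 0.691, 0.672 and 0.611 without both replicate 4 libraries, where *Hand2* met the call in place of *Hoxa11*. It was met by 0 of the 8 without Wnk1f/f replicate 4, Wnk1d/d replicate 1 or Wnk1d/d replicate 3, by 2 without Wnk1f/f replicate 3 or Wnk1d/d replicate 4, and by 3 without Wnk1d/d replicate 2. The summed level of the 8 was 668, 635, 623 and 684 FPKM in Wnk1f/f and 442, 551, 434, 510 and 504 FPKM in Wnk1d/d. Most of it came from *Hoxa10*, *Hoxa11* and *Hand2*, with means of 231, 221 and 87.2 FPKM in Wnk1f/f.

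All 10 B subunit genes were transcribed in the uterus of both genotypes, and B56 genes were the most abundant. By mean FPKM over the 9 libraries the order was *Ppp2r5c* (48.3), *Ppp2r5a* (43.4), *Ppp2r5d* (35.8), *Ppp2r2d* (25.4), *Ppp2r2a* (19.0), *Ppp2r5b* (14.4), *Ppp2r5e* (12.6), *Ppp2r2c* (12.5), *Ppp2r3a* (10.6) and *Ppp2r2b* (5.79). FPKM are scaled to transcript length, so levels of different genes can be set side by side. From *Ppp2r5d* down to *Ppp2r5e* each gene was above the next in 9 of 9 libraries. The neighbours *Ppp2r5c* and *Ppp2r5a* did not keep their order, with *Ppp2r5c* above in 2 of 4 Wnk1f/f and 5 of 5 Wnk1d/d libraries. *Ppp2r2c* was below *Ppp2r5e* in 4 of 4 Wnk1f/f libraries and above it in 4 of 5 Wnk1d/d libraries. Its place among the 10 was 9 in Wnk1f/f and 6 in Wnk1d/d.

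Both B55 genes with the lowest levels in Wnk1f/f were higher in Wnk1d/d, 1 B56 gene was lower and another slightly higher, and the other 6 overlapped between genotypes. The ratios of means of those 6 lay between 0.85 and 1.06. Counted by the call used for all genes, an adjusted p under 0.05 in limma and a ratio of means of at least 1.5, 2 of the 10 were called, both higher, where 5.09% of the tested genes were called higher and 5.18% lower. At an adjusted p under 0.05 alone, 3 were higher and 1 lower, against 11.1% and 11.0% of the tested genes. Of these, *Ppp2r5b* was no longer under 0.05 without both replicate 4 libraries, without any 1 of Wnk1f/f replicates 1, 2 and 4 or Wnk1d/d replicates 3, 4 and 5, or with no filter on low values. *Ppp2r2b* was not under 0.05 with no filter either, and 0 of these 4 were with the replicate number as a block. In 3 genes each Wnk1d/d library was above each Wnk1f/f library and in 1 gene each was below, against 9.27% and 10.6% of the tested genes. Because the selection was made with this contrast in view, nothing is read from these counts. The median log2 difference of the 10 was 0.06, and that of all tested genes 0.00.

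**Figure D1:**
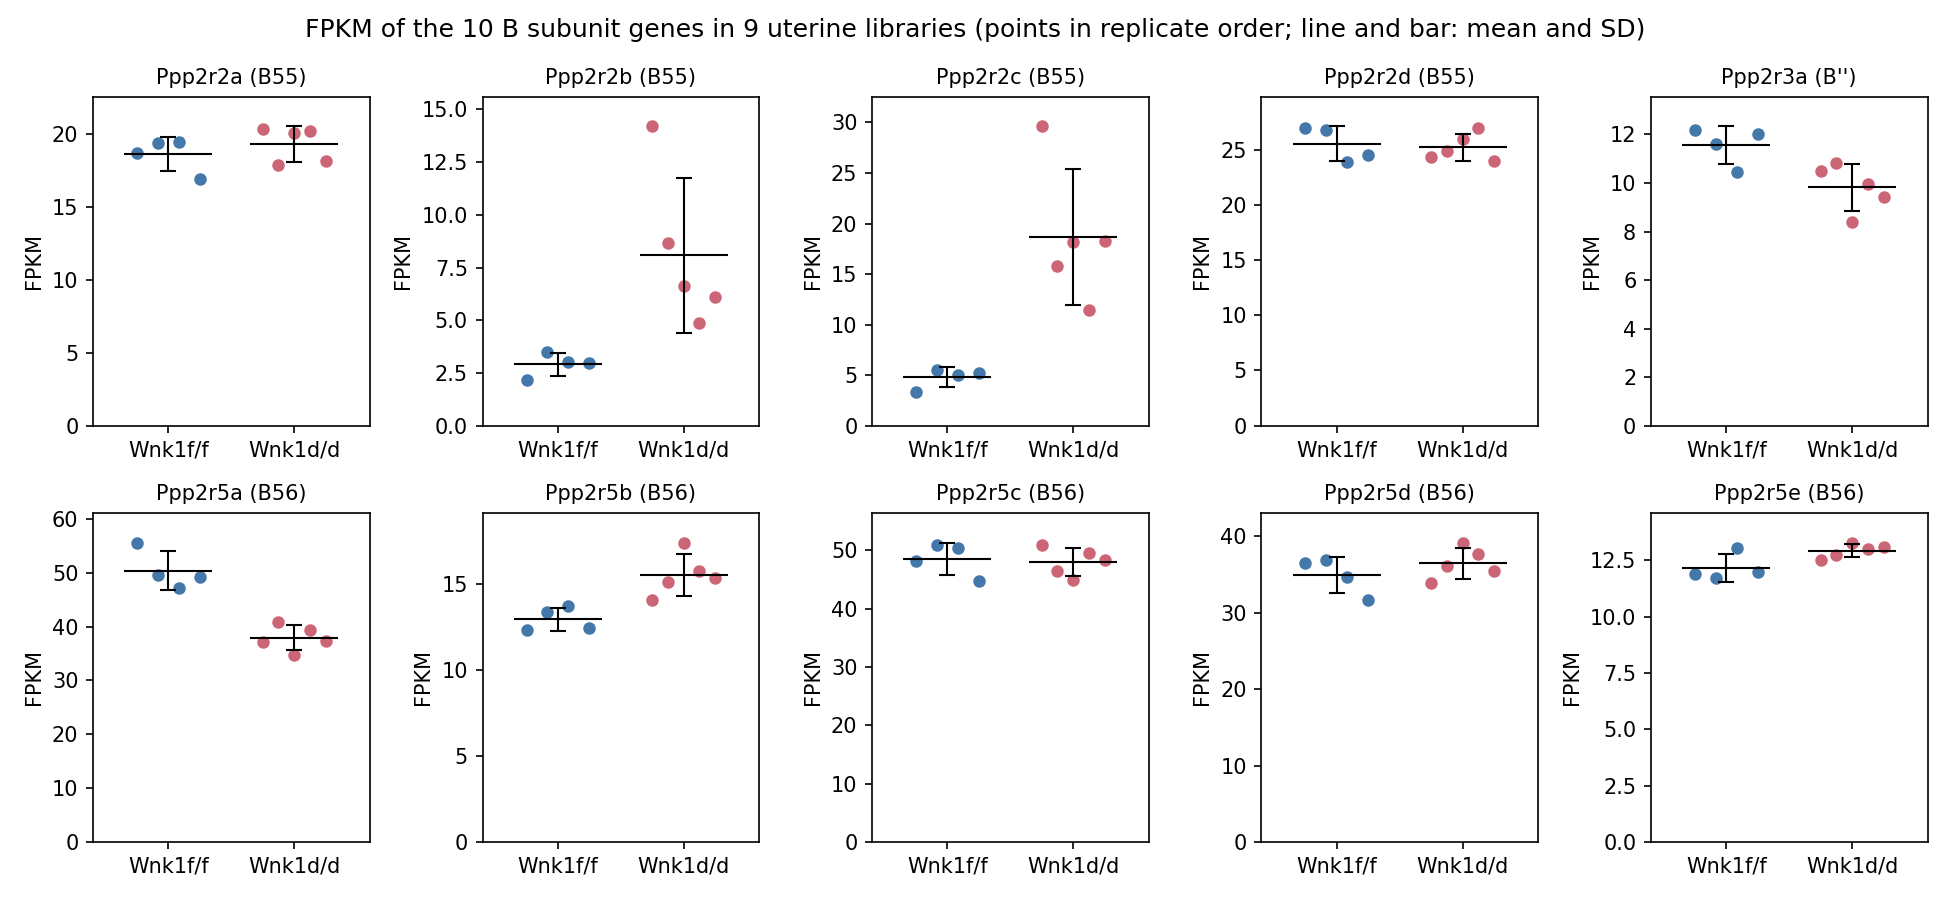
FPKM of each B subunit gene in the 4 Wnk1f/f and 5 Wnk1d/d libraries, with points in replicate order and lines and bars for the mean and SD. *Ppp2r2b*, *Ppp2r2c* and *Ppp2r5b* lie higher in Wnk1d/d without overlap, *Ppp2r5a* lies lower without overlap, and the other 6 genes overlap.

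*Ppp2r2c* encodes the gamma subunit of the B55 family, known mainly from brain. It had 3.31, 5.51, 5.05 and 5.25 FPKM in Wnk1f/f and 29.6, 15.8, 18.2, 11.4 and 18.3 FPKM in Wnk1d/d. Even the lowest Wnk1d/d library, replicate 4, was above the highest Wnk1f/f library, and Wnk1d/d replicate 1 was far above the others. The means were 4.78 ± 0.998 (SD, n = 4) and 18.7 ± 6.73 (SD, n = 5), a ratio of 3.90, and the log2 difference was 1.72 (SE 0.23). Without both replicate 4 libraries the ratio was 4.43, and without Wnk1d/d replicate 1 it was 3.33. In whole tissue, more cells of a type that transcribes a gene and more transcript per cell cannot be told apart, and the same holds for lower values.

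The promoters of *Ppp2r2c* and *Ppp2r5a* are printed because these genes had the largest differences in each direction among the 7 B subunit genes with a RefSeq promoter entry. Each is the stretch of 250 bases before an annotated start, 5′ to 3′ on the gene's strand, from build GRCm38.p6. The *Ppp2r2c* stretch is chr5:36868260-36868509 on the + strand, and the *Ppp2r5a* stretch is chr1:191397042-191397291 on the - strand. Capitals mark a GC box, GGGCGG on either strand.
Ppp2r2c: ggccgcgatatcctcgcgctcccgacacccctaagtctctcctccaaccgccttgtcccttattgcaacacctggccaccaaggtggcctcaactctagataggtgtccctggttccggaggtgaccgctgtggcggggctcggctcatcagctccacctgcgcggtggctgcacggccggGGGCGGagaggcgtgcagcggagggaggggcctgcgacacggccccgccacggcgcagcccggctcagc
Ppp2r5a: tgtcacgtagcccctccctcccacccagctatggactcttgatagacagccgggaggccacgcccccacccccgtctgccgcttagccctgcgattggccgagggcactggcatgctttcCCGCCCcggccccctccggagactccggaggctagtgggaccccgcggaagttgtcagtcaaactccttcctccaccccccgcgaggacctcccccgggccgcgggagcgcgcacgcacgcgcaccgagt
The *Ppp2r2c* stretch had 69.6% GC and 23 CpG, and the *Ppp2r5a* stretch had 70.4% GC and 24 CpG, while the medians over 32851 such stretches were 52.4% and 6.00. Each held 1 GC box, as 32.7% of all stretches held at least 1. Searched on both strands, neither held the forkhead motif TGTTTAC (in 3.17% of all stretches), the estrogen response element GGTCANNNTGACC (0.0639%), the progesterone and glucocorticoid response element GAACANNNTGTTC (0.0396%) or a CArG box (1.47%). Each printed stretch held a single match, so no matches overlapped, and these are matches of letters only. No exon of another gene lies in either stretch in GENCODE release M21, and the *Ppp2r5a* stretch lies inside the annotated span of that gene, upstream of 1 of its starts. *Ppp2r2c* itself spans 36868513 to 36955078 on chromosome 5.

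*Ppp2r5a*, the alpha subunit gene of the B56 family, known for its part in heart muscle, had the highest mean level of the 10 genes in Wnk1f/f and the second highest in Wnk1d/d. It had 55.6, 49.6, 47.1 and 49.2 FPKM in Wnk1f/f and 37.2, 40.8, 34.8, 39.4 and 37.3 FPKM in Wnk1d/d. Each Wnk1d/d library was below each Wnk1f/f library, and Wnk1f/f replicate 1 was the highest. The means were 50.4 ± 3.65 (SD, n = 4) and 37.9 ± 2.32 (SD, n = 5), a ratio of 0.752, with a log2 difference of -0.40 (SE 0.07). The ratio was 0.739 without both replicate 4 libraries. The gene lies on chromosome 1 from 191351975 to 191403272 on the - strand and shares no exon bases with another gene.

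*Ppp2r2b* encodes the beta subunit of the B55 family, which is known mainly from neurons. It had the lowest mean level of the 10 genes in each genotype, though not the lowest level in each library, with 2.17, 3.48, 3.04 and 2.99 FPKM in Wnk1f/f and 14.2, 8.65, 6.64, 4.85 and 6.09 FPKM in Wnk1d/d. The genotypes did not overlap. As for *Ppp2r2c*, replicates 1 and 2 were the lowest and the highest Wnk1f/f libraries, and replicates 4 and 1 the lowest and the highest Wnk1d/d libraries. The means were 2.92 ± 0.546 (SD, n = 4) and 8.08 ± 3.68 (SD, n = 5), a ratio of 2.77, with a log2 difference of 1.14 (SE 0.25). Leaving out both replicate 4 libraries gave a ratio of 3.07, and leaving out Wnk1d/d replicate 1 gave 2.25. Part of its exon sequence is shared with 4933407I08Rik on the opposite strand, a symbol that the table does not list.

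The level of *Ppp2r2c* relative to *Ppp2r2b* also differed between the genotypes. It was 153%, 158%, 166% and 176% in Wnk1f/f and 209%, 183%, 273%, 235% and 301% in Wnk1d/d. The genotypes did not overlap, but the highest Wnk1f/f value (176%) and the lowest Wnk1d/d value (183%) were close. The low *Ppp2r2b* values in Wnk1f/f rest on an unknown number of fragments. Whether the proportion of the pair was fixed was therefore not tested. The mean was 163% ± 9.99 (SD, n = 4) in Wnk1f/f and 240% ± 47.6 (SD, n = 5) in Wnk1d/d.

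The other B55 genes had like levels in both genotypes. *Ppp2r2a*, the alpha subunit gene, whose product directs PP2A to AKT, had means of 18.6 ± 1.17 (SD, n = 4) and 19.3 ± 1.20 FPKM (SD, n = 5), a ratio of 1.04. *Ppp2r2d*, the delta subunit gene, known for its part in leaving mitosis, had 25.6 ± 1.55 (SD, n = 4) and 25.2 ± 1.22 FPKM (SD, n = 5), a ratio of 0.987. Both differences were smaller than the SD within a genotype. *Ppp2r2d* shares exon bases with *Mapk1ip1* on the opposite strand, which had 46.0 to 57.7 FPKM in Wnk1f/f and 30.9 to 45.6 FPKM in Wnk1d/d. Whether fragments were assigned by strand is not given in the sources used here, so the part of *Mapk1ip1* in the *Ppp2r2d* values was not tested.

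*Ppp2r5b*, the beta subunit gene of the B56 family, had 12.3, 13.4, 13.7 and 12.4 FPKM in Wnk1f/f and 14.1, 15.2, 17.4, 15.8 and 15.4 FPKM in Wnk1d/d. The genotypes did not overlap, but Wnk1f/f replicate 3 and Wnk1d/d replicate 1 were close. The means were 13 ± 0.677 (SD, n = 4) and 15.6 ± 1.22 (SD, n = 5), a ratio of 1.20, with a log2 difference of 0.24 (SE 0.07). Without both replicate 4 libraries the log2 difference was 0.22 (SE 0.09). The gene lies on chromosome 19 from 6227765 to 6235872. *Gpha2*, on the opposite strand and sharing exon bases with it, had at most 0.35 FPKM in any library.

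The remaining B56 genes overlapped between genotypes. *Ppp2r5c*, the gamma subunit gene, had means of 48.5 ± 2.81 (SD, n = 4) and 48.1 ± 2.41 FPKM (SD, n = 5), a ratio of 0.990. *Ppp2r5d*, the delta subunit gene, in which variants cause a neurodevelopmental disorder in people, had 34.9 ± 2.39 (SD, n = 4) and 36.5 ± 2.03 FPKM (SD, n = 5), a ratio of 1.04. It shares exon bases with *Mea1* on the opposite strand, which had 75.8 to 111 FPKM over the 9 libraries. *Ppp2r5e*, the epsilon subunit gene, had 12.2 ± 0.609 (SD, n = 4) and 12.9 ± 0.30 FPKM (SD, n = 5), a ratio of 1.06.

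*Ppp2r3a* was the gene of the B'' family among the 10. Its product binds calcium. Part of its exon sequence is shared with Gm37621 on the opposite strand, a symbol that the table does not list. It had 12.2, 11.6, 10.5 and 12 FPKM in Wnk1f/f and 10.5, 10.8, 8.40, 9.96 and 9.43 FPKM in Wnk1d/d. Wnk1f/f replicate 3 lay among the Wnk1d/d libraries. The means were 11.6 ± 0.769 (SD, n = 4) and 9.82 ± 0.958 (SD, n = 5), a ratio of 0.85, with a log2 difference of -0.22 (SE 0.08).

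The make-up of the B55 family differed between the genotypes. *Ppp2r2b* and *Ppp2r2c* together made up 10.7%, 16.3%, 15.7% and 16.6% of the summed B55 FPKM in Wnk1f/f and 49.5%, 36.4%, 35.0%, 25.6% and 36.7% in Wnk1d/d. Their share was lowest in Wnk1f/f replicate 1 and highest in Wnk1d/d replicate 1, and the genotypes did not overlap. The mean share was 14.8% ± 2.76 (SD, n = 4) in Wnk1f/f and 36.7% ± 8.50 (SD, n = 5) in Wnk1d/d, a difference of 21.8 points. *Ppp2r2d* held 49.3% of the B55 sum in Wnk1f/f and 36.0% in Wnk1d/d, and *Ppp2r2a* held 35.9% and 27.4%. The FPKM of these genes were near equal in both genotypes, and their smaller shares in Wnk1d/d stand against a larger sum. That sum was 51.1, 55.1, 51.4 and 49.7 FPKM in Wnk1f/f and 88.5, 67.2, 70.8, 63.4 and 66.5 FPKM in Wnk1d/d.

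Within the B56 family the shares differed less. *Ppp2r5a* had a mean share of 31.7% ± 1.94 (SD, n = 4) of the B56 sum in Wnk1f/f and 25.1% ± 1.32 (SD, n = 5) in Wnk1d/d, without overlap. It was the most abundant of the 10 genes by mean in Wnk1f/f, and *Ppp2r5c* was in Wnk1d/d. *Ppp2r5b* held 8.16% and 10.3%, *Ppp2r5d* 22.0% and 24.2%, and *Ppp2r5e* 7.66% and 8.57%, each higher in Wnk1d/d without overlap. For *Ppp2r5d* the highest Wnk1f/f share and the lowest Wnk1d/d share were both 22.8% when rounded. The FPKM of *Ppp2r5d* and *Ppp2r5e* overlapped, with ratios of 1.04 and 1.06, and their larger shares stand against a lower *Ppp2r5a* in the same sum. *Ppp2r5c* held 30.5% and 31.8%, with overlap. The summed B56 level was 159 ± 6.38 FPKM (SD, n = 4) in Wnk1f/f and 151 ± 2.81 FPKM (SD, n = 5) in Wnk1d/d, with overlap.

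**Figure D2:**
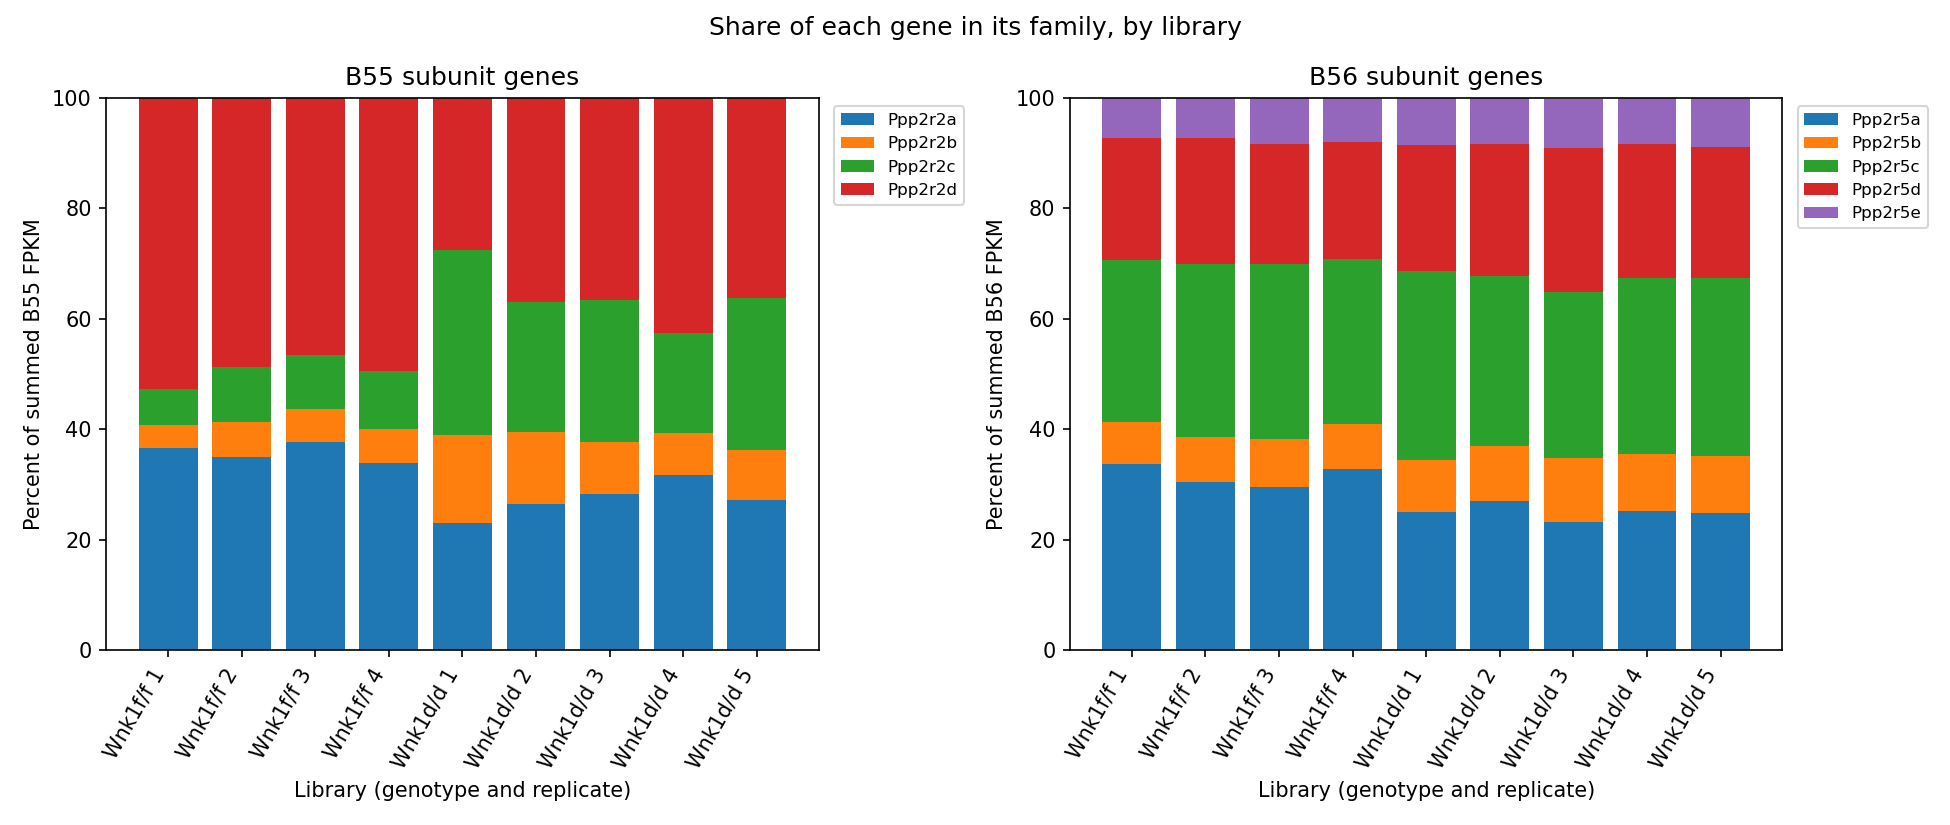
Share of each gene in the summed FPKM of the B55 family (left) and the B56 family (right), in percent, with 1 bar per library. *Ppp2r2b* and *Ppp2r2c* together take 10.7% to 16.6% of B55 in Wnk1f/f and 25.6% to 49.5% in Wnk1d/d, and *Ppp2r5a* takes 29.6% to 33.8% and 23.2% to 27.0% of B56.

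Across families, B55 genes held 23.3% ± 0.666 (SD, n = 4) of the FPKM of all 10 genes in Wnk1f/f and 30.6% ± 3.08 (SD, n = 5) in Wnk1d/d, without overlap. B56 genes held 71.5% ± 0.711 (SD, n = 4) and 65.1% ± 3.02 (SD, n = 5), also without overlap. The total of the 10 was less different, at 228, 229, 221 and 212 FPKM in Wnk1f/f and 248, 229, 229, 229 and 226 FPKM in Wnk1d/d. Relative to the summed C subunit genes *Ppp2ca* and *Ppp2cb*, the 10 genes stood at 154% ± 12 (SD, n = 4) in Wnk1f/f and 138% ± 9.22 (SD, n = 5) in Wnk1d/d, with overlap. On the same base B56 genes stood at 110% ± 8.06 (SD, n = 4) and 89.6% ± 8.12 (SD, n = 5), and B55 genes at 36.0% ± 3.14 (SD, n = 4) and 42.0% ± 4.0 (SD, n = 5), each with overlap. These are proportions of transcripts, not of proteins.

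The genes that make, hold and restrain the PP2A core were compared in limma over all tested genes. Of 31 such genes outside the 10 that could be tested, 2 were higher and 3 lower in Wnk1d/d at an adjusted p under 0.05, which is 16.1% of them against 22.1% of all tested genes. The call that also needs a ratio of 1.5 was met by 1, or 3.23% against 10.3%. Their median log2 difference was 0.12, against 0.00 over all tested genes. The A and C subunit genes *Ppp2r1a*, *Ppp2r1b*, *Ppp2ca* and *Ppp2cb* held 0 such genes at an adjusted p under 0.05, and 2 at an unadjusted p under 0.05. Their estimates were all above 0, with a median log2 difference of 0.17. Of all 14728 tested genes, 50.5% had estimates above 0, and 2896 were higher and 2766 lower at an unadjusted p under 0.05.

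Among B subunit genes outside the 10, *Ppp2r3d*, a gene of the B'' family, fell from 10 ± 0.114 (SD, n = 4) to 8.45 ± 0.625 FPKM (SD, n = 5), in 5 of 5 Wnk1d/d libraries (log2 difference -0.23, adjusted p 0.033). The other 4 genes of the list, *Ppp2r3c* and the striatin genes *Strn*, *Strn3* and *Strn4*, did not pass, with ratios of means between 0.995 and 1.08. These genes are set beside the members because their products bind the same core. The median log2 difference of the 5 was 0.06.

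Of 5 genes for assembly and methylation of PP2A, 1 rose and 1 fell. *Ppme1*, whose product removes the methyl group from the end of the C subunit, rose from 22.1 ± 0.718 (SD, n = 4) to 26.4 ± 1.67 FPKM (SD, n = 5), in 5 of 5 libraries (log2 difference 0.24, adjusted p 0.022). *Igbp1*, whose product binds C subunits outside the complete enzyme, fell from 102 ± 6.38 (SD, n = 4) to 80.3 ± 5.93 FPKM (SD, n = 5), in 5 of 5 libraries (log2 difference -0.34, adjusted p 0.014). Neither reached a ratio of 1.5. The other 3 genes of the list, the phosphatase activator gene *Ppp2r4*, the methyltransferase gene *Lcmt1* and *Tiprl*, did not pass, with ratios of 1.12, 1.04 and 0.962, and the median log2 difference of the 5 genes was 0.05.

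Of 9 PP2A inhibitor genes, 8 had estimates above 0, against 50.5% of all tested genes, and the median log2 difference was 0.16. In limma, 0 had an adjusted p under 0.05 and 2 had an unadjusted p under 0.05. *Ensa*, whose phosphorylated product inhibits PP2A with a B55 subunit, had 75.1 ± 5.0 (SD, n = 4) and 88.6 ± 6.80 FPKM (SD, n = 5), with 5 of 5 libraries above the Wnk1f/f mean (adjusted p 0.053). *Anp32a* had 102 ± 16.1 (SD, n = 4) and 90.4 ± 7.60 FPKM (SD, n = 5), an adjusted p of 0.29. It was the inhibitor gene with an estimate below 0, and 4 of 5 libraries lay below the Wnk1f/f mean.

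STRIPAK is a complex in which striatins, as B subunits, join PP2A with kinases. Of 8 tested partner genes, 1 rose and 1 fell, and the median log2 difference was 0.05. *Slmap*, a membrane anchor of the complex that is abundant in muscle, had 73.1, 46.4, 59.4 and 49.6 FPKM in Wnk1f/f and 95.5, 73.2, 86.9, 117 and 104 FPKM in Wnk1d/d. It was the gene of the 31 that met the call, with a ratio of 1.67 (log2 difference 0.73, SE 0.16, adjusted p 0.015) and 5 of 5 libraries above the Wnk1f/f mean, though its lowest Wnk1d/d library was level with the highest Wnk1f/f library. *Stk25*, a kinase of the complex, fell from 62.8 ± 3.49 (SD, n = 4) to 54.8 ± 1.90 FPKM (SD, n = 5), in 5 of 5 libraries (log2 difference -0.19, adjusted p 0.041). *Strip2* was below the filter, and the table had no entry under the symbol *Stk26*.

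The related phosphatases PP4 and PP6, which have regulatory subunits of their own, gave 0 of 10 genes at an adjusted p under 0.05 in limma and 0 at an unadjusted p under 0.05. Their median log2 difference was 0.06. The catalytic subunit gene *Ppp4c* had 86.3 ± 14.7 (SD, n = 4) and 97.3 ± 8.09 FPKM (SD, n = 5), with an adjusted p of 0.27 and 4 of 5 libraries above the Wnk1f/f mean. *Ppp6r1*, a regulatory subunit gene, had 51.5 ± 1.37 (SD, n = 4) and 56 ± 2.36 FPKM (SD, n = 5), with an adjusted p of 0.14 and 5 of 5 libraries above that mean.

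Without both replicate 4 libraries, the 5 genes that passed had adjusted p of 0.068 (*Ppp2r3d*), 0.091 (*Ppme1*), 0.055 (*Igbp1*), 0.073 (*Stk25*) and 0.071 (*Slmap*), so that 0 of them passed. Their log2 differences were then -0.26, 0.23, -0.35, -0.23 and 0.60, against -0.23, 0.24, -0.34, -0.19 and 0.73 with all 9 libraries. Over all 21 alternatives their adjusted p ranged from 0.029 to 0.2 for *Ppp2r3d*, 0.011 to 0.12 for *Ppme1*, 0.0062 to 0.084 for *Igbp1*, 0.0075 to 0.21 for *Stk25* and 0.0067 to 0.073 for *Slmap*. Leaving out a single library ended the pass for *Ppme1* (Wnk1f/f replicate 1 or Wnk1d/d replicate 3), for *Ppp2r3d* (any Wnk1f/f library, or Wnk1d/d replicate 1, 3 or 5) and for *Stk25* (any library but Wnk1d/d replicate 2). Median scaling and limma without trend also ended it for *Stk25*, as having no filter on low values did for *Slmap*.

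**Figure D3:**
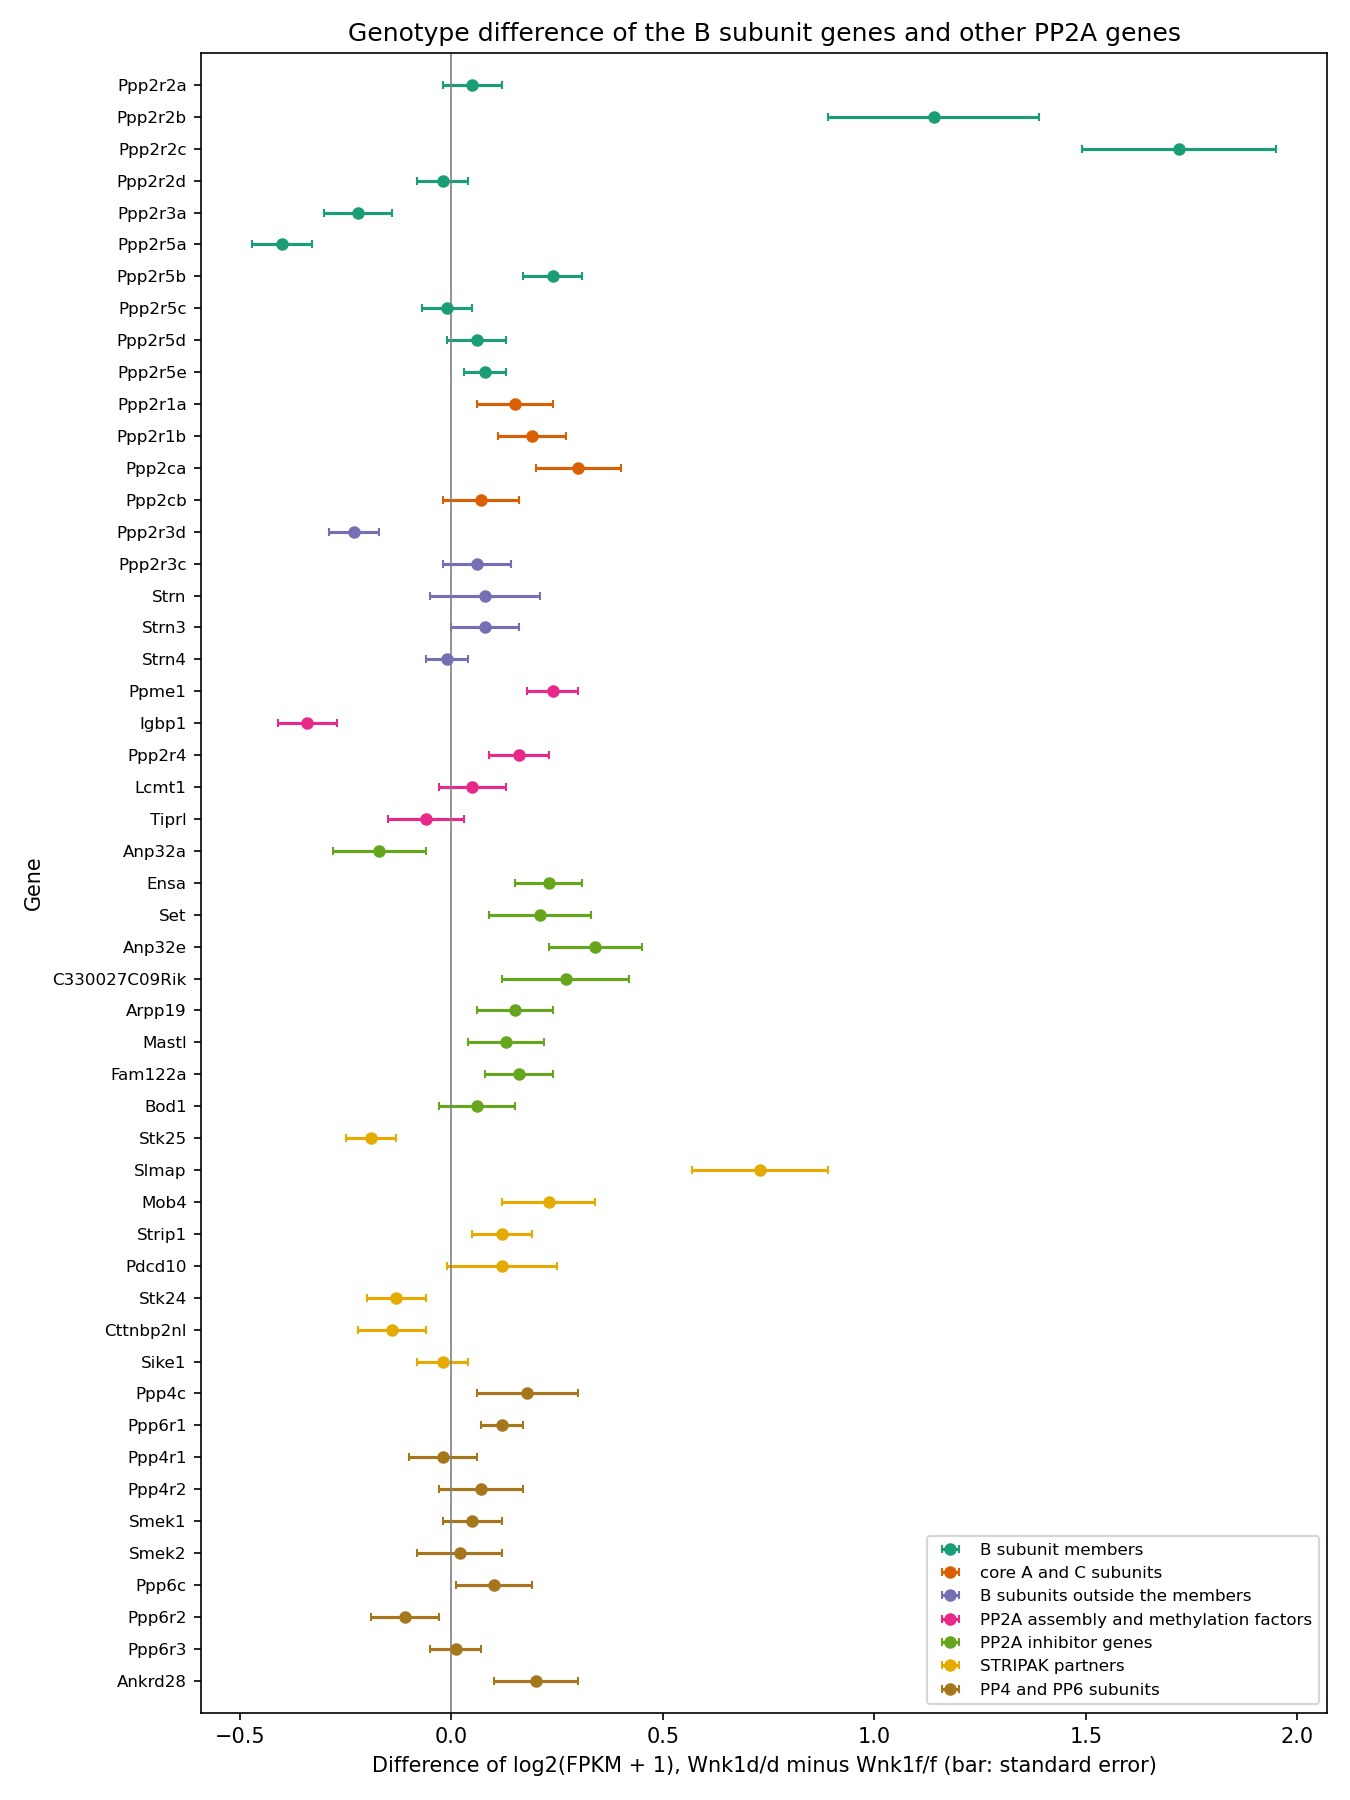
Difference of log2(FPKM + 1) between Wnk1d/d (n = 5) and Wnk1f/f (n = 4) for the 10 B subunit genes and 41 other tested genes of PP2A, PP4 and PP6, with bars for the standard error. *Ppp2r2c* (1.72) and *Ppp2r2b* (1.14) lie farthest to the right, followed by *Slmap* (0.73), and *Ppp2r5a* (-0.40) lies farthest to the left.

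Cell type markers in the same libraries moved with the genotype, and their part in the B subunit values was not tested. All 10 smooth muscle markers were called higher in Wnk1d/d with all 9 libraries. Without both replicate 4 libraries all 10 estimates were still above 0, but 4 were called (*Acta2*, *Actg2*, *Cnn1* and *Des*), and without Wnk1f/f replicate 2 or Wnk1f/f replicate 4 alone 6 were. Their summed level was 7458, 4793, 6111 and 3401 FPKM in Wnk1f/f and 10736, 8281, 12125, 15327 and 14702 FPKM in Wnk1d/d, with *Tagln* the most abundant. The mean sums without both replicate 4 libraries were 6121 FPKM (n = 3) and 11461 FPKM (n = 4). The libraries came in nearly the same order for *Slmap*, with Wnk1f/f replicates 1 and 3 above 2 and 4, and Wnk1d/d replicate 4 the highest and replicate 2 the lowest in their genotypes. For *Ppp2r2b* and *Ppp2r2c* the order was another, since both were lowest in Wnk1d/d replicate 4.

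Of 10 endothelium markers, 9 were called lower in Wnk1d/d, and *Tie1* was not (adjusted p 0.053, ratio 0.664). Over the alternatives, the highest limma adjusted p of each lay above 0.05, from 0.052 (*Vwf*) to 0.15 (*Tie1*). Without both replicate 4 libraries all 10 estimates were below 0, but 4 were called (*Cdh5*, *Vwf*, *Emcn* and *Esam*). With a single library left out, 4 were called without Wnk1f/f replicate 4 and 5 without Wnk1f/f replicate 1 or 2 or Wnk1d/d replicate 1 or 3. The summed level was 560, 610, 582 and 589 FPKM in Wnk1f/f and 236, 458, 299, 399 and 380 FPKM in Wnk1d/d, with *Esam* the most abundant. The lowest sum was in Wnk1d/d replicate 1, the library with the highest *Ppp2r2b* and *Ppp2r2c*. Endothelial cells are among those that keep *Wnk1*.

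Epithelium markers overlapped between genotypes. Their sums were 1243, 1757, 1420 and 1194 FPKM in Wnk1f/f and 1989, 1741, 1654, 1442 and 1326 FPKM in Wnk1d/d. The most abundant by mean was *Krt18* in Wnk1f/f (365 FPKM, against 362 FPKM for *Cldn3*) and *Cldn3* in Wnk1d/d (381 FPKM). The highest sums were in Wnk1f/f replicate 2 and Wnk1d/d replicate 1, as for *Ppp2r2b* and *Ppp2r2c*. The lowest sums were in Wnk1f/f replicate 4 and Wnk1d/d replicate 5, while *Ppp2r2b* and *Ppp2r2c* were lowest in Wnk1f/f replicate 1 and Wnk1d/d replicate 4. Of the 10, *Krt7* and *Cldn7* were called higher, with ratios of 1.86 and 1.52. These ratios were 2.24 and 1.42 without both replicate 4 libraries, and *Cldn7* was not called. With a single library left out, 0 were called without Wnk1f/f replicate 1, Wnk1d/d replicate 1 or Wnk1d/d replicate 3, 2 without Wnk1d/d replicate 5, and 1 without any of the others. Of the 10 stroma markers, 3 were called higher and 3 lower. Their sums also overlapped, at 2992 to 3599 FPKM in Wnk1f/f and 3343 to 4127 FPKM in Wnk1d/d. The most abundant by mean was *Vim* in Wnk1f/f (880 FPKM) and *Col3a1* in Wnk1d/d (872 FPKM). Among those called, only *Lum* and *Pdgfrb* stayed under 0.05 in limma adjusted p over the alternatives (highest 0.043 and 0.046). The stroma list shares *Hand2* and *Hoxa11* with the uterus list.

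Neurons are a known site of *Ppp2r2b* and *Ppp2r2c*, and markers of nerve cells were low. The 10 neuron markers summed to 6.05 to 10.2 FPKM over the 9 libraries, with overlap and *Stmn2* the most abundant, and 7 of them had a mean of at most 1 FPKM in both genotypes. *Snap25*, *Nefl* and *Elavl3* had means of 0.010, 0.00500 and 0.0225 FPKM in Wnk1f/f and 0.0360, 0.00400 and 0.0400 FPKM in Wnk1d/d. The 10 Schwann cell markers summed to 18.1 to 35.2 FPKM, with *Erbb3* the most abundant, and 7 of them also had a mean of at most 1 FPKM. The mean sums of both lists were lower in Wnk1d/d, at 7.08 against 8.75 FPKM for neurons and 22.3 against 30.2 FPKM for Schwann cells. *Stmn2* made up 5.38 and *Erbb3* 21.7 FPKM of these sums in Wnk1f/f. Among the markers at low levels, *Tubb3*, *Elavl3*, *Elavl4*, *Snap25*, *Nefm* and *S100b* had higher means in Wnk1d/d, with ratios of 1.64 to 4.40 and overlap between genotypes.

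Immune cell markers summed to 340, 404, 487 and 690 FPKM in Wnk1f/f and 426, 399, 423, 327 and 432 FPKM in Wnk1d/d, with *Lyz2* the most abundant. Of the 9 that could be tested, 0 were called in limma and 0 had an unadjusted p under 0.05. *Cd68* was called higher without both replicate 4 libraries, and without Wnk1f/f replicate 1 alone 2 others, *Cd52* and *Nkg7*, were called lower. Wnk1f/f replicate 4, the library with liver transcripts, had the highest immune sum. Of 9 tested liver markers 0 were called, and 1 had an unadjusted p under 0.05. The fit without both replicate 4 libraries called *Serpina1c* higher, as did that without Wnk1f/f replicate 4 alone, while *Fga* was called lower without Wnk1f/f replicate 2. *Serpina1c* was the most abundant of them over the 9 libraries, and it was highest in Wnk1d/d replicate 1, at 36.6 FPKM. Fat markers summed to 58.7 to 75 FPKM in both genotypes together, with *Pnpla2* the most abundant and *Lep* at 0 in each library. Of 4 tested, 1, *Fabp4*, was called higher, with a highest limma adjusted p of 0.056 over the alternatives.

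**Figure D4:**
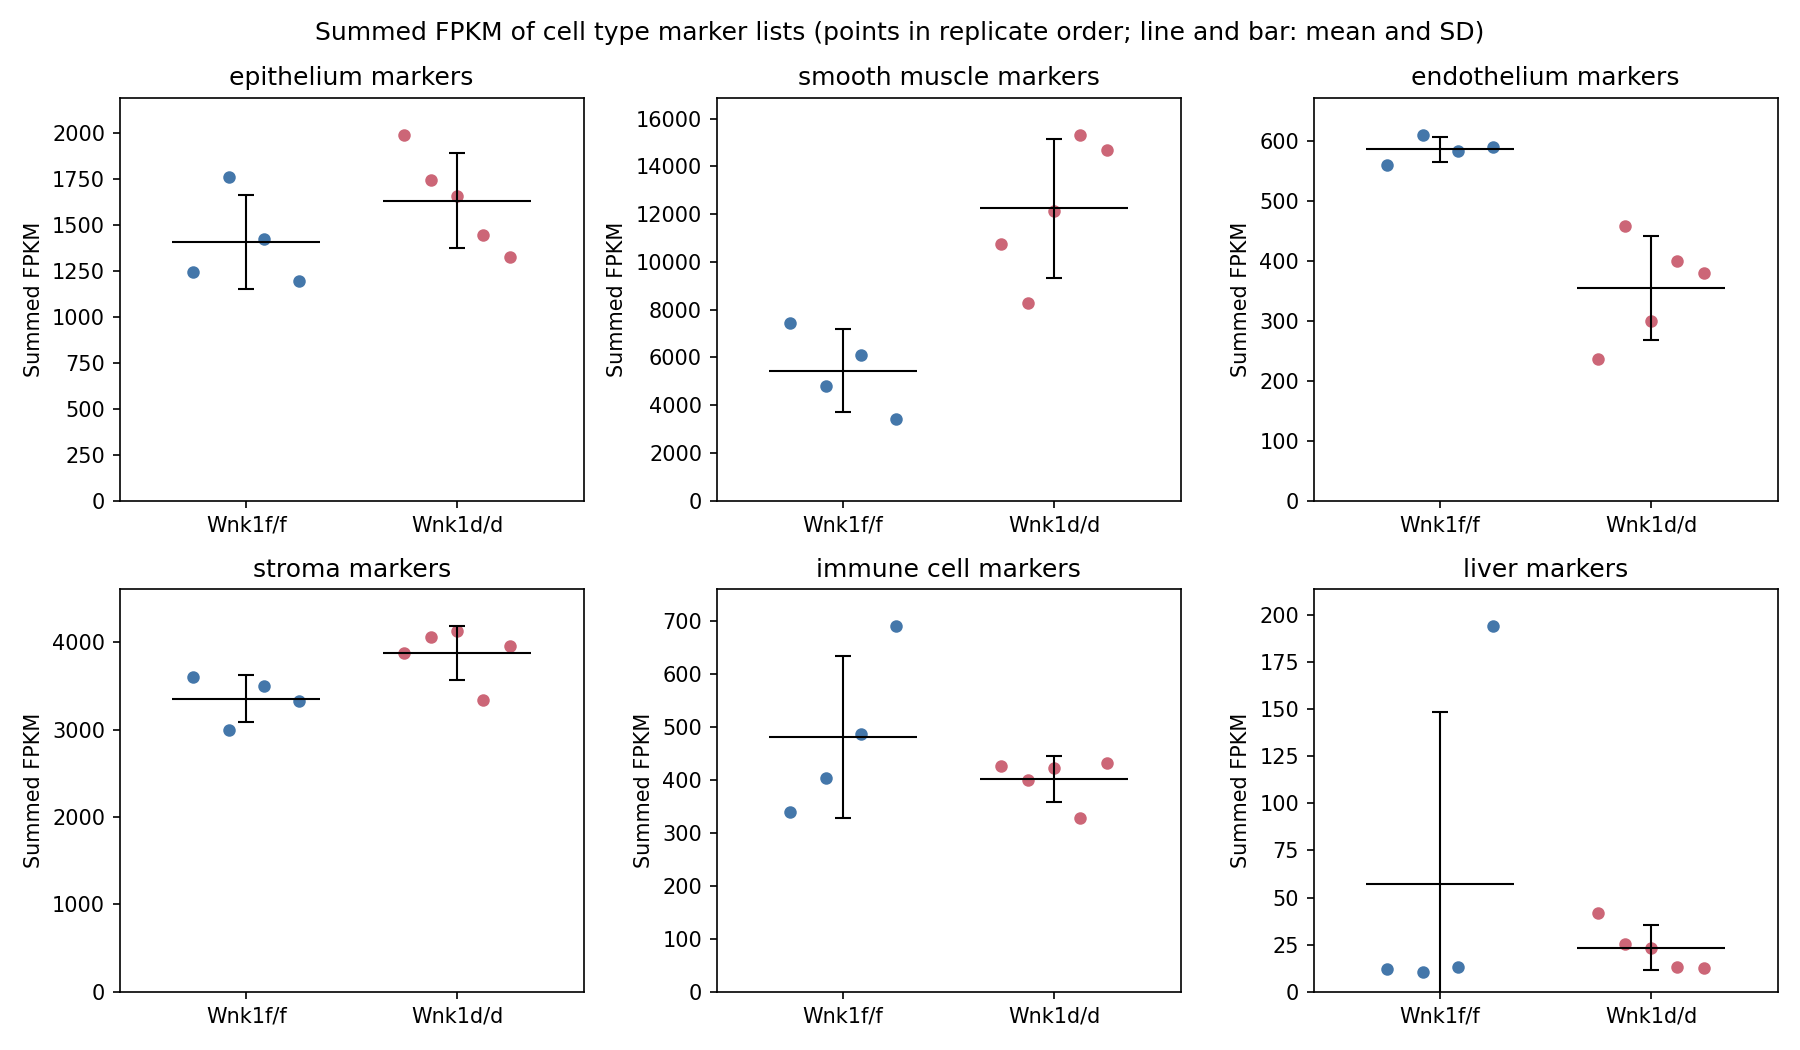
Summed FPKM of 6 marker lists in each library, with points in replicate order and lines and bars for the mean and SD; the lower bar of the liver markers in Wnk1f/f ends at 0. Smooth muscle sums are 3401 to 7458 FPKM in Wnk1f/f and 8281 to 15327 FPKM in Wnk1d/d, endothelium sums are lower in Wnk1d/d, and 1 Wnk1f/f library has 194 FPKM of liver markers.

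The genes whose profile over the 9 libraries was nearest to *Ppp2r2b* and *Ppp2r2c* were sought among all tested genes. Likeness was the root mean square difference between log2(FPKM + 1) values scaled to mean 0 and SD 1. For *Ppp2r2b* the nearest were *Gltp*, a glycolipid transfer protein gene (0.144 SD), *Gtf2f2*, a general transcription factor subunit gene (0.153 SD), and 2310030G06Rik (0.169 SD). For *Ppp2r2c* they were *Nfkbia*, an inhibitor gene of NF-kappa-B (0.136 SD), *Unc5cl* (0.137 SD) and *Slc7a11*, a cystine transporter gene (0.151 SD). *Ppp2r2c* was at place 21 among the genes nearest to *Ppp2r2b*, and *Ppp2r2b* at place 33 for *Ppp2r2c*, both at 0.277 SD. *Unc5cl* had 0.80, 2.07, 1.74 and 0.97 FPKM in Wnk1f/f and 33.4, 10.9, 18.9, 6.49 and 14.9 FPKM in Wnk1d/d. In each of these 6 genes, as in the B55 pair, Wnk1d/d replicate 1 was the highest and replicate 4 the lowest library of its genotype. No test applies to genes picked by likeness.

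**Figure D5:**
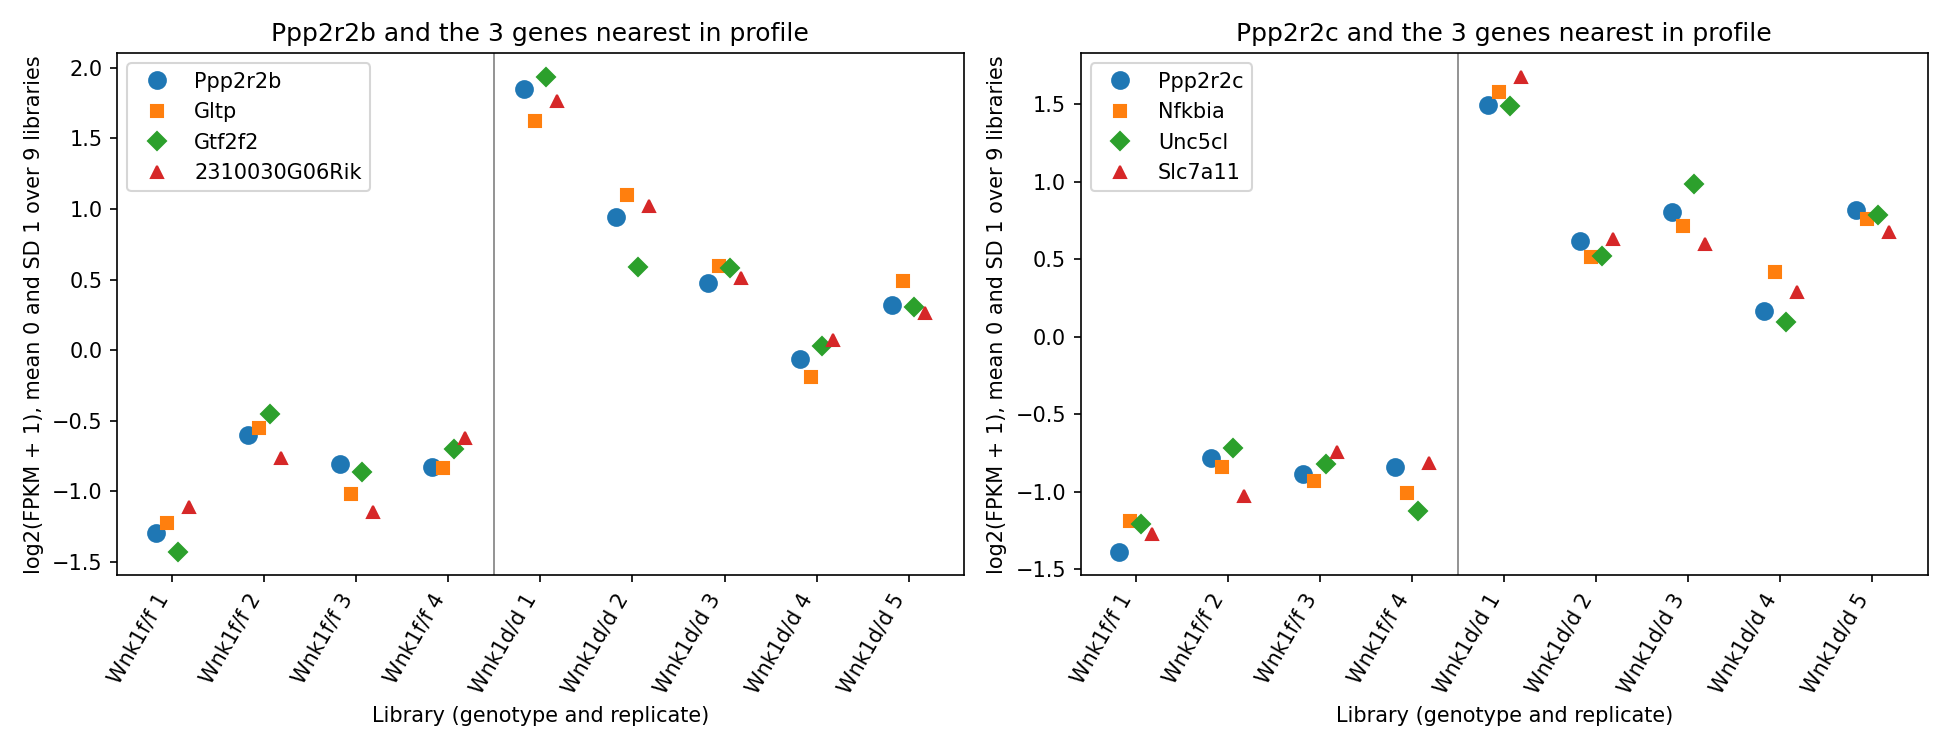
Values of log2(FPKM + 1), scaled to mean 0 and SD 1 over the 9 libraries, for *Ppp2r2b* (left) and *Ppp2r2c* (right) with the 3 genes nearest in profile to each. All are lower in the 4 Wnk1f/f libraries left of the line, and Wnk1d/d replicate 1 is the highest library of each gene.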

How the data were processed

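For the deposited FPKM, made by the authors with 1 column for each of the 9 libraries, the submitters' processing notes name TopHat2 2.0.4, Cufflinks 2.0.2 and mm10. The paper names a later Cufflinks version for its Cuffdiff test, and which version made the table was not settled here. Strand use and the gene annotation are not given in the sources used here. The values were taken to log2(FPKM + 1) as deposited, with no other scaling. Where the mean passed 1 FPKM in at least 1 genotype, a gene entered an unpaired limma 3.58.1 fit in R 4.3.3 with a variance trend, and p-values were adjusted by Benjamini-Hochberg over 14728 genes. A gene was called when its adjusted p was under 0.05 and its genotype means differed by 1.5 times or more. Means, SD, sums and shares were computed in Python 3.11.15 with NumPy 2.4.6. The limma step was tested on simulated data. Read depth is unknown. The FPKM that a single fragment adds was taken from low values in 7 entries, relative to the geometric mean of the libraries. It was 0.835 to 1.15, and the highest was 1.37 times the lowest. Only entries whose positive values lay within 1.5 times of each other were used. This measure could therefore hardly show a larger difference, and how far depth differed between libraries is not settled by it.

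The members and lists were chosen with earlier results of these data known. Named genes are the 10 members, *Wnk1*, the A and C subunit genes, genes of the PP2A, PP4 and PP6 lists with an adjusted p under 0.05, up to 2 of the most abundant others in a list, and the 3 nearest profiles for each member with a ratio of at least 1.5. Further genes of the lists and single marker genes were named after their values were seen. Alternatives were pseudocounts of 0.1 and 0.01, quantile normalization, median scaling, no filter or a minimum of 5 FPKM, robust estimation or no trend in limma, a replicate block, a ratio of 2 or none, and leaving out each library. Leaving out both replicate 4 libraries, for the marker lists too, was added after seeing the data. Coordinates come from GENCODE release M21 on mm10, and promoters from RefSeq on GRCm38.p6, where 7 members matched by symbol with 11 stretches.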

Additional observations from a re-analysis of the deposited data

Results flagged for a closer look

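Of 78 groups of 4 or 5 libraries, 5 held a library far from the others of its genotype, with a gap to the nearest above Dixon's 95% critical value, where chance gives about 1 in 20. *Ppp2ca* had 114 FPKM in Wnk1f/f replicate 3, against 89.6 to 92.5 FPKM in the other Wnk1f/f libraries. *Anp32a* had 103 FPKM in Wnk1d/d replicate 4, against 83.3 to 88.6 FPKM in the other Wnk1d/d libraries. The 10 B subunit genes summed to 248 FPKM in Wnk1d/d replicate 1, against 226 to 229 FPKM in the others, and *Ppp2r2b* and *Ppp2r2c* were both highest in that library. The Schwann cell markers summed to 32.1 FPKM in Wnk1d/d replicate 2, against 18.1 to 21.7 FPKM. The liver markers summed to 194 FPKM in Wnk1f/f replicate 4, against 10.3 to 13 FPKM in the others.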

How the results depend on the processing

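Over the alternatives the log2 difference ranged from 1.55 to 1.92 for *Ppp2r2c* and from 0.93 to 1.38 for *Ppp2r2b*. It ranged from 0.21 to 0.28 for *Ppp2r5b* and from -0.45 to -0.35 for *Ppp2r5a*. Of 150 log2 differences recomputed, 150 stayed within 1 SD, and 5 had the other sign, all in *Ppp2r2a*, *Ppp2r2d* or *Ppp2r5c*, whose differences are near 0. Of 117 family shares recomputed, 117 stayed within 1 SD. This too was fixed in advance where libraries were left out, so only the shares after quantile normalization could have moved farther. With that normalization the joint share of *Ppp2r2b* and *Ppp2r2c* was 14.6% in Wnk1f/f and 36.8% in Wnk1d/d. Over all alternatives this joint share ranged from 14.2% to 16.2% in Wnk1f/f and from 33.4% to 39.4% in Wnk1d/d. Leaving out 1 library gave ratios of 2.25 to 3.05 for *Ppp2r2b* and 3.33 to 4.28 for *Ppp2r2c*. Median scaling and quantile normalization moved the median of all tested genes by at most 0.01 (log2).

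Of all tested genes, 1513 were called. The count was 550 with a ratio of 2, 3249 with no ratio criterion, 806 without both replicate 4 libraries (added after seeing the data) and 1019 to 1870 when 1 library was left out. Of the 10 members, 1 (*Ppp2r2c*) met the call with no filter on low values, where 1024 of 31274 entries did, and 4 with no ratio criterion, where 3249 of 14728 did. The main call was met by 2, also with any 1 library left out. Nothing is read from these counts, since the members were selected with the contrast in view. Of the 41 other genes of PP2A, PP4 and PP6, 1 (*Slmap*) was called, also with any 1 library left out, against 0 with no filter, 0 with a ratio of 2, 0 without both replicate 4 libraries and 5 with no ratio criterion. The cause was not tested where the construction of an alternative (another ratio, fewer libraries) does not show it.

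With the replicate number as a block, 218 of all tested genes were called, 0 of the members and 0 of the 41 other genes, and 0 of the 5 others that passed an adjusted p under 0.05 still did. The numbers do not pair the libraries: correlations of residual profiles were -0.268 to 0.0221 for the 4 pairs with the same number and -0.144 to 0.305 for the 16 pairs with different numbers. The share of called genes that were higher was 60.6% with the block and 60.4% with a ratio of 2, against 49.6%.

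FPKM hold no counts, so counting error has no interval here, and low values such as those of *Ppp2r2b* rest on an unknown number of fragments. Fragments from genes on the opposite strand cannot be separated here. Whole-tissue transcript levels do not show protein levels or assembled PP2A.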
